A study of Mus musculus with 6 samples.

Results

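The genes described here carry the adrenergic and muscarinic signals of the heart: the receptor genes Adra1a, Adra1b, Adra1d, Adra2a, Adrb1, Adrb3 and Chrm2 and the receptor kinase genes Grk2 and Grk5. They were taken by gene name from a table of raw gene counts, and all 9 were found among its 57010 genes. The libraries were made from primary neonatal mouse cardiomyocytes (NMCMs), isolated from C57BL/6 mice of 1 to 3 days and kept under hypoxia (HO). In the HO + Vehicle group (V1, V2 and V3) the hypoxic cells received the vehicle alone, and in the HO + β-SITO group (T4, T5 and T6) they received β-sitosterol, a plant sterol. The comparison asks which of these genes differed with β-SITO under hypoxia, and no normoxic library was used here. The dose and the duration of treatment of these libraries are not given in the sources used here. NMCMs were parted from cardiac fibroblasts only by how fast cells stick to the dish, so the cultures can hold other cells of the heart. The labels do not say whether the 3 libraries of a group came from separate cultures, so the p-values measure the spread between these libraries, which may be technical. The library names of the HO + β-SITO group carry a suffix that those of the HO + Vehicle group lack, and a separate preparation cannot be told apart from the treatment.

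Sympathetic nerves release noradrenaline and the adrenal medulla releases adrenaline, and both act on adrenergic receptors. In cardiomyocytes β receptors couple to Gs, raise cyclic AMP and make the beat faster and stronger, while α1 receptors couple to Gq and phospholipase C and act on growth and survival. The vagus nerve releases acetylcholine, which slows the heart through the M2 muscarinic receptor, Gi and an acetylcholine-gated potassium channel. G protein-coupled receptor kinases (GRKs) phosphorylate receptors that are in use, after which arrestins bind and uncouple them.

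The libraries held between 16694734 and 18460522 counts, and 14799 genes had enough counts to be tested. Levels are given as raw counts and as CPM, counts in every 1000000 of the TMM-scaled library size, and the test is the quasi-likelihood test of edgeR, adjusted over all tested genes by the Benjamini-Hochberg method. A gene was called when its adjusted p was under 0.05 and its change was over 2-fold, a log2 fold change beyond 1 in either direction. By this rule 12.8% of all tested genes were called higher and 10.1% lower in the HO + β-SITO group. With the adjusted p alone the shares were 33.0% higher and 33.8% lower. For 34.8% of the tested genes every HO + β-SITO library lay above every HO + Vehicle library, and for 35.8% every one lay below. Defining cardiomyocyte genes were abundant in every library, Myh6 with at least 27535 counts and Tnnt2 with at least 14081, as were Col1a1 of fibroblasts, with at least 140833, and Lyz2 of macrophages, with at least 9266. The libraries of a group were not alike in cardiomyocyte genes. The summed CPM of 16 cardiomyocyte markers was 8146 in V1, 7126 in V2 and 7192 in V3, and 6460 in T4 against 11024 in T5 and 11214 in T6. T4 thus lay below every other library, at 58.1% of the mean of T5 and T6, while its summed fibroblast markers were at 101% of that mean. In bulk RNA, fewer cells of a type and less RNA per cell cannot be told apart.

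Of the 9 genes, Adra1a and Adrb3 were called, both higher in the HO + β-SITO group. Adra1b, Adrb1 and Grk5 were higher and Grk2 was lower at an adjusted p under 0.05 with changes of less than 2-fold, Chrm2 did not pass, and Adra1d and Adra2a had too few counts to be tested. Thus 2 of the 7 tested genes were called higher against 12.8% of all tested genes, none was called lower against 10.1%, and with the adjusted p alone 5 were higher against 33.0% and 1 was lower against 33.8%. Adra1a and Adrb3 passed the filter on low counts only through the HO + β-SITO libraries, so that passing it already required a difference, and these counts over the tested genes support nothing further. The groups did not overlap for 4 of the 7 tested genes with the HO + β-SITO libraries above (34.8% of all tested genes) and for 1 with them below (35.8%).

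**Figure D1:**
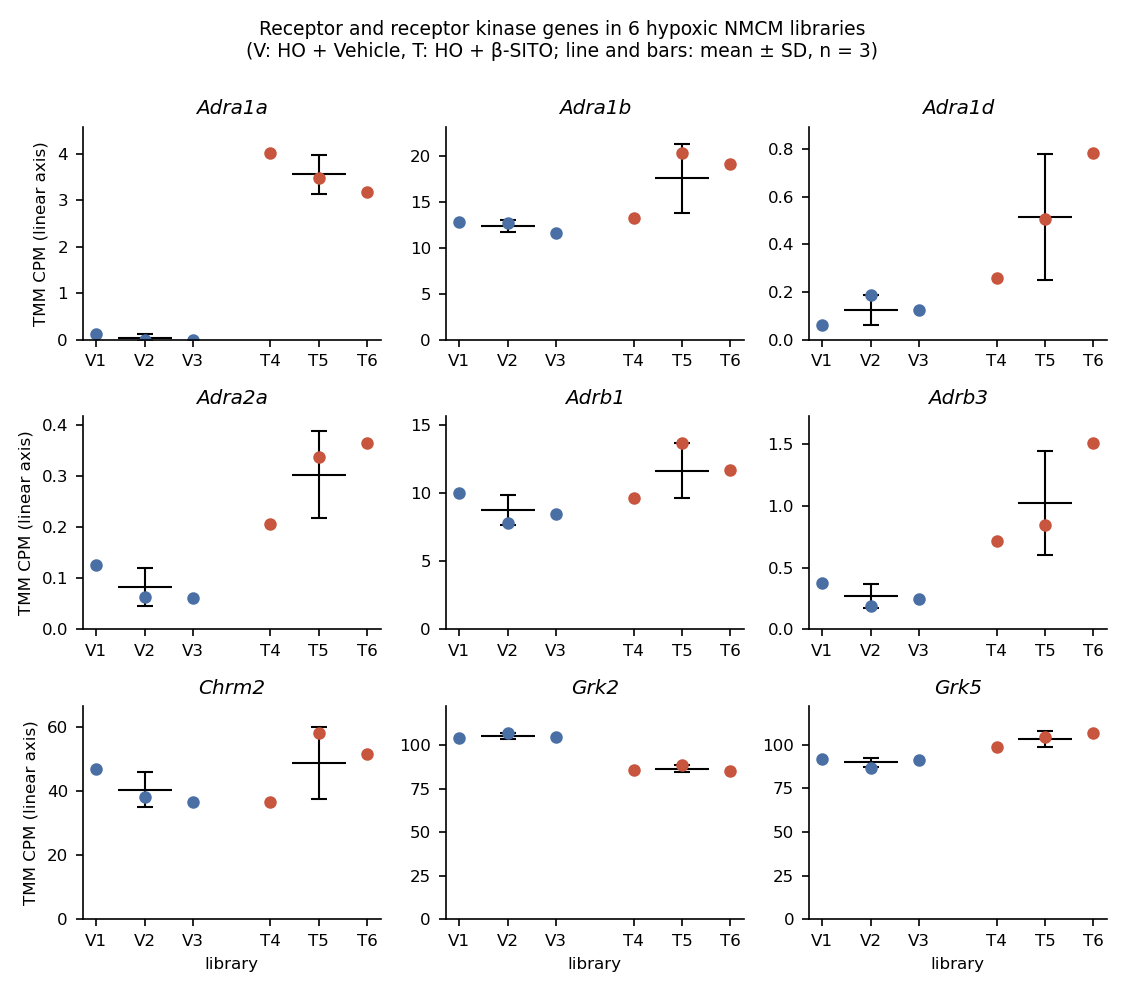
CPM (linear axis from 0, a separate scale for each gene) of the 9 genes in each library, with HO + Vehicle libraries in blue, HO + β-SITO libraries in red, and the mean ± SD of 3 libraries as a black line with bars. Adra1a is at 0 to 0.126 CPM in the vehicle libraries and at 3.18 to 4.01 CPM with β-SITO, Grk2 and Grk5 show little spread within a group, and T4 lies below T5 and T6 for Chrm2, Adra1b and Adrb1.

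Adra1a encodes the α1A receptor, one of the pair of α1 subtypes that cardiomyocytes of the mouse use (chr14:66872700-67008617, plus strand, GRCm39). The files held 2 counts of Adra1a in V1 and 0 in V2 and in V3, against 78 in T4, 62 in T5 and 61 in T6. The gene was therefore at the limit of detection in the vehicle libraries and present in all 3 HO + β-SITO libraries, at a mean of 3.56 ± 0.421 CPM (SD, n = 3). Because the vehicle group held only 2 counts, the size is best given as the ratio of the scaled sums, 85.3 with a 95% counting interval of 23.3 to 709, which covers counting error only. The fitted log2 fold change was 6.19 ± 0.49 (SE, edgeR adjusted p = 2.12e-08), a value that depends on the prior count and on V1, since it was 8.99 without that library. No annotated gene overlaps Adra1a in the table. Within the HO + β-SITO group Adra1a was highest in T4, at 120% of the mean of T5 and T6, the reverse of the cardiomyocyte markers and of Chrm2, Adra1b and Adrb1. This order rests on 78, 62 and 61 counts, and whether it exceeds counting error was not tested. Beside it, the summed CPM of 12 macrophage markers in T4 was at 122% of the mean of T5 and T6, that of 7 epicardial markers at 111% and that of 8 Schwann cell markers at 106%. The sums for autonomic neurons, fibroblasts and endothelial cells were at 102%, 101% and 100%, and that for smooth muscle cells and pericytes at 87.2%.

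Adra1b encodes the α1B receptor, the other α1 subtype of mouse cardiomyocytes, and had the highest level per kilobase of the 6 adrenergic receptor genes (chr11:43665433-43792037, minus strand, GRCm39). It had 203 counts in V1, 203 in V2 and 187 in V3, and 259 in T4, 361 in T5 and 368 in T6. All HO + β-SITO libraries were above all HO + Vehicle libraries, but T4, at 13.3 CPM, lay close to V1, at 12.8 CPM. The mean was 12.4 ± 0.685 CPM with vehicle and 17.6 ± 3.75 CPM with β-SITO (SD, n = 3), and the log2 fold change was 0.50 ± 0.14 (SE, edgeR adjusted p = 0.00402). Without T4 the log2 fold change was 0.67 and the difference passed as well. Relative to the summed cardiomyocyte markers, a scaling chosen after the data were seen, it was 0.17 and did not pass (edgeR adjusted p = 0.705).

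Adra1d encodes the α1D receptor, which is known mostly from smooth muscle of arteries (chr2:131387770-131404203, minus strand, GRCm39). It had 1, 3 and 2 counts in V1, V2 and V3, and 5, 9 and 15 in T4, T5 and T6. All HO + β-SITO libraries held more than any vehicle library, at very low counts. The ratio of the scaled sums was 4.10 (95% counting interval 1.67 to 12.1), and a fit without the filter on low counts gave a log2 fold change of 1.98 (edgeR adjusted p = 0.0104). Of 12 markers of smooth muscle cells and pericytes, all tested, 7 were called higher and none lower (12.8% and 10.1% of all tested genes). Their summed CPM ran from 1344 to 1486 in the vehicle libraries and from 2210 to 2568 with β-SITO. Most of the sum was Acta2 (means of 562 and 1114 CPM) and Pdgfrb (528 and 813 CPM). Myh11 was at 8.80 and 26.1 CPM, and Des went the other way, from 167 to 115 CPM. The paper also measured α-SMA, the product of Acta2, in cardiac fibroblasts, so the sum is not a measure of smooth muscle alone. The part of these 12 markers in the Adra1d values was not tested.

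Per kilobase of exon, Adra1b supplied nearly all α1 receptor RNA in the vehicle libraries. Its share of the summed α1 RPKM (CPM per kilobase) was 98.8% in V1, 97.4% in V2 and 98.1% in V3, and 86.9% in T4, 90.0% in T5 and 88.0% in T6. Adra1a accounted for 0.377% in V1 and for none of the reads of V2 and V3, and for 10.1% in T4, 5.99% in T5 and 5.65% in T6. The α1B gene thus remained the main source in every library, with a smaller share in each HO + β-SITO library than in any vehicle library.

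**Figure D2:**
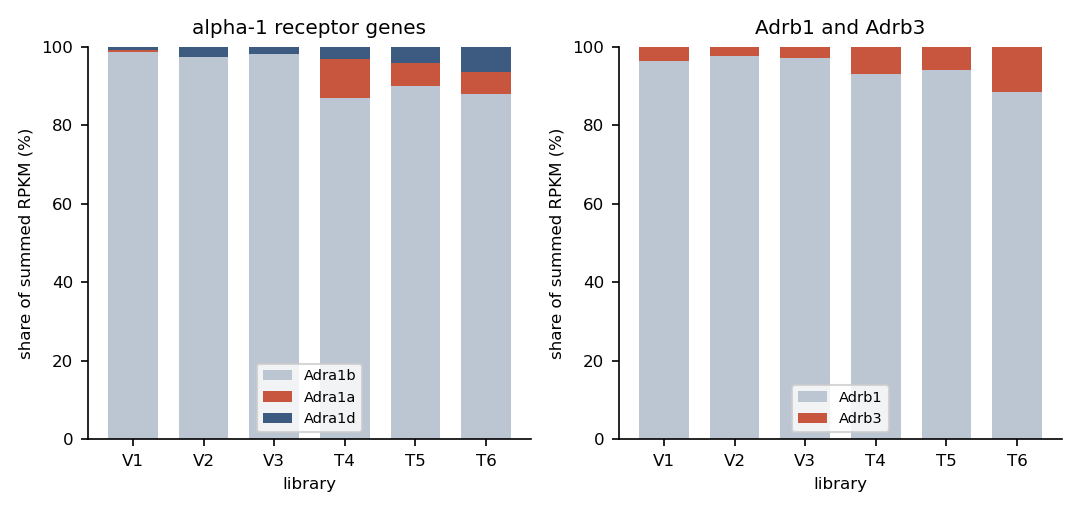
Share of each gene in the summed RPKM (CPM per kilobase of exon) of its receptor class in each library, for the α1 genes Adra1b, Adra1a and Adra1d on the left and for Adrb1 and Adrb3 on the right. Adra1b holds 97.4% to 98.8% in the vehicle libraries and 86.9% to 90.0% with β-SITO, and Adrb1 holds at least 88.5% of the summed Adrb1 and Adrb3 RPKM in each library.

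Adra2a encodes the α2A receptor, a Gi-coupled receptor best known from sympathetic nerve endings, where it limits noradrenaline release (chr19:54032582-54037413, plus strand, GRCm39). It had 2, 1 and 1 counts in V1, V2 and V3, and 4, 6 and 7 in T4, T5 and T6. Every HO + β-SITO library held more counts than any vehicle library, but the values stayed close to the limit of detection, since 3 counts came to 0.154 to 0.189 CPM in these libraries. The ratio of the scaled sums was 3.61 (95% counting interval 1.18 to 14.7), and the fit without the filter did not pass, with a log2 fold change of 1.77 (edgeR adjusted p = 0.0960). Markers of autonomic neurons, the cells that release the transmitters of these receptors, were uneven. Hand2, Tubb3 and Uchl1 had at least 249 counts in every library and Dbh had 22 to 52. Chat and Snap25 had no count in any library, Th and Elavl3 had 1 count in 1 library each, and of the 4 tested genes of this list of 12, none passed.

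Adrb1 encodes the β1 receptor, the main β receptor of cardiomyocytes and the target of the beta blockers used in heart failure (chr19:56710631-56721545, plus strand, GRCm39). It had 158 counts in V1, 125 in V2 and 136 in V3, and 187 in T4, 243 in T5 and 224 in T6. On the CPM scale the groups overlapped, since V1, at 9.98 CPM, lay above T4, at 9.61 CPM. The mean was 8.75 ± 1.11 CPM with vehicle and 11.6 ± 2.02 CPM with β-SITO (SD, n = 3), which gave a log2 fold change of 0.41 ± 0.14 (SE, edgeR adjusted p = 0.0166). The difference passed only with certain libraries included. The adjusted p was 0.0689 without V2, 0.0532 without V3 and 0.0688 without T5 (edgeR), and relative to the summed cardiomyocyte markers the log2 fold change was 0.10 (edgeR adjusted p = 0.834).

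Adrb3 encodes the β3 receptor, known best for lipolysis in fat and for a nitric oxide signal that opposes the other β receptors in the heart (chr8:27715804-27740644, minus strand, GRCm39). It had 6, 3 and 4 counts in V1, V2 and V3, and 14, 15 and 29 in T4, T5 and T6. The groups did not overlap, and T6 held as many counts as T4 and T5 together. The mean was 0.272 ± 0.0976 CPM with vehicle and 1.02 ± 0.425 CPM with β-SITO (SD, n = 3), which gave a log2 fold change of 1.89 ± 0.45 (SE, edgeR adjusted p = 0.00164), and it was 1.51 without T6 (edgeR adjusted p = 0.0110). A test against a change of 2-fold, in place of a change of any size, did not pass (glmTreat in edgeR, adjusted p = 0.0594). A long noncoding RNA gene on the other strand, Gm45470, overlaps Adrb3 and had 0 counts in each vehicle library and 9, 2 and 7 in T4, T5 and T6. The strand setting of the counting is not stated, so reads of the pair cannot be told apart with certainty. Adrb3 made up 2.35% to 3.66% of the summed RPKM of Adrb1 and Adrb3 in the vehicle libraries and 5.82% to 11.5% with β-SITO.

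Chrm2 encodes the M2 muscarinic receptor, through which the vagus nerve slows the heart, and had the highest level per kilobase of the 7 receptor genes (chr6:36365019-36505349, plus strand, GRCm39). It had 740 counts in V1, 607 in V2 and 591 in V3, and 710 in T4, 1036 in T5 and 989 in T6. In CPM the vehicle libraries lay at 46.7, 38.1 and 36.6, and the HO + β-SITO libraries at 36.5, 58.2 and 51.5. T4 was thus the lowest of all 6 libraries and T5 and T6 the highest. The means were 40.5 ± 5.47 and 48.7 ± 11.1 CPM (SD, n = 3), and the log2 fold change of 0.27 ± 0.13 (SE) did not pass (edgeR adjusted p = 0.0945). The outcome turned on single libraries, the filter and the scaling. It passed with no filter beyond 1 count (0.27, edgeR adjusted p = 0.00204) and on library size alone (0.41, edgeR adjusted p = 0.0128). It was 0.44 without T4 (edgeR adjusted p = 1.81e-04) and 0.40 without V1 (edgeR adjusted p = 0.0296). Relative to the summed cardiomyocyte markers it was -0.060 (edgeR adjusted p = 0.905). The opposite-strand noncoding gene 9330158H04Rik overlaps Chrm2 and had 46 to 64 counts in the vehicle libraries and 57, 92 and 104 in T4, T5 and T6. The other muscarinic receptor genes were at most at 18 counts in any library, and none of Chrm1, Chrm3, Chrm4 and Chrm5 was tested.

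Chrm2, Adra1b and Adrb1 were all lower in T4 than in T5 and T6, as were the cardiomyocyte markers. In T4 they were at 66.5%, 67.5% and 75.9% of the mean of T5 and T6, beside 58.1% for the summed cardiomyocyte markers. In V1 Chrm2 and Adrb1 were at 125% and 123% of the mean of V2 and V3, beside 114% for the markers, and Adra1b was at 105%. Counted per 100000 cardiomyocyte marker counts, Chrm2 was at 539 ± 32.5 with vehicle and at 517 ± 53.7 with β-SITO (SD, n = 3). Its spread over the HO + β-SITO libraries was 22.8% of the mean in CPM and 10.4% of the mean per marker count. For Adrb1 the spread did not narrow, at 17.4% in CPM and 17.9% per marker count, where T4 was its highest library (149, against 124 in T5 and 104 in T6). Per marker count Adrb1 went from 117 ± 6.30 to 126 ± 22.4 and Adra1b from 166 ± 11.3 to 187 ± 17.8 (SD, n = 3). The difference was smaller than the SD of the HO + β-SITO group for Adrb1 and larger than it for Adra1b. All 16 cardiomyocyte markers were tested and none was at 0 in any library. Of these 4 were called higher, Myh7, Myl4, Myl7 and Nppa, and none lower (12.8% and 10.1% of all tested genes). With the adjusted p alone 8 were higher and 2 lower (33.0% and 33.8% of all). Within the sum Myh6 went from a mean of 1973 to 2849 CPM, Nppa from 416 to 1176 and Tnnt2 from 1236 to 892. Each result scaled to these markers thus rests on a sum whose genes differed between the groups in both directions. The part of these markers in the receptor values was not tested.

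**Figure D3:**
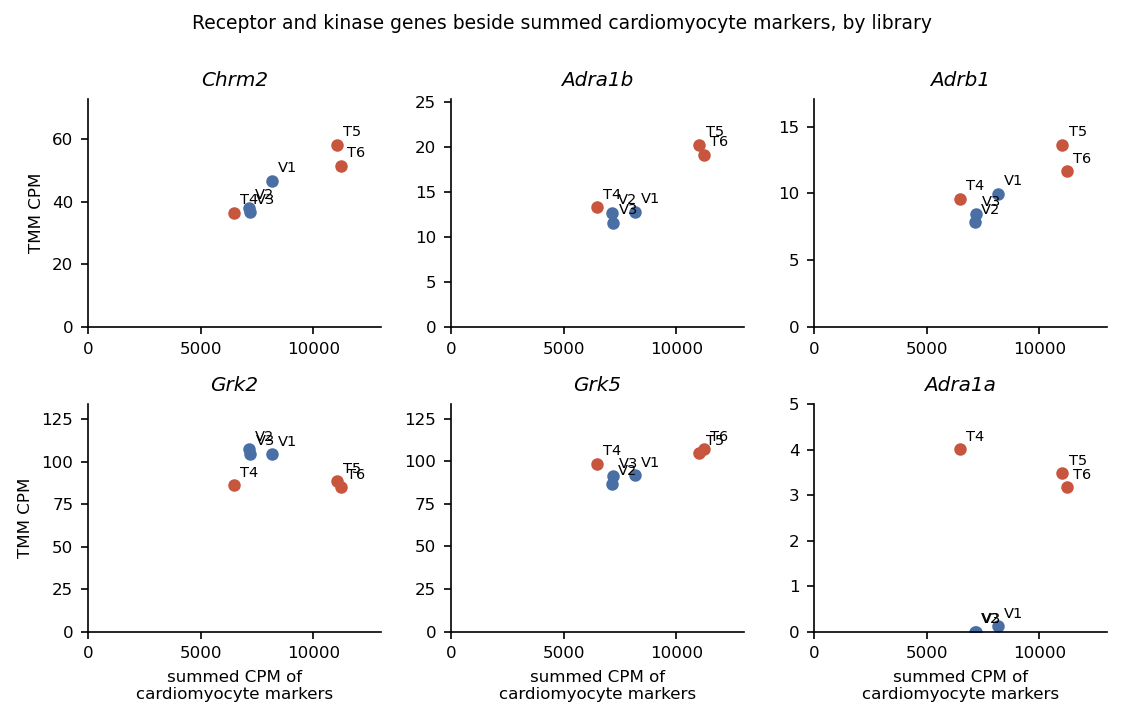
CPM of 6 genes (linear axes from 0) against the summed CPM of 16 cardiomyocyte markers, one point per library, vehicle in blue and β-SITO in red. Within the HO + β-SITO group Chrm2, Adra1b and Adrb1 are lower in T4 than in T5 and T6. T4 has the lowest marker sum (6460 CPM), and T5 and T6 have the highest (11024 and 11214 CPM). Among all libraries only Chrm2 of these genes is lowest in T4. Adra1b in T4 (13.3 CPM) lies above each vehicle library, and Adrb1 in T4 (9.61 CPM) lies above V2 and V3. Grk2 splits by group at any marker sum, and Adra1a is highest in T4.

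For these 3 receptor genes, all low in T4 within their group, the 250 bases before the annotated start are shown from RefSeq (build GRCm38.p6, 5′ to 3′ on the strand of the gene, not the build of the counts), with every match to a searched motif in capitals. The table used held promoters for 5 of the 9 genes. Adra1b has a pair of annotated starts, and both are shown. A stretch of bases just after the start was found in an annotated transcript of the same gene for Chrm2. It was not found for Adrb1 or for either Adra1b start, so the place of those starts is less certain.
Chrm2, chr6:36387834-36388083, plus strand: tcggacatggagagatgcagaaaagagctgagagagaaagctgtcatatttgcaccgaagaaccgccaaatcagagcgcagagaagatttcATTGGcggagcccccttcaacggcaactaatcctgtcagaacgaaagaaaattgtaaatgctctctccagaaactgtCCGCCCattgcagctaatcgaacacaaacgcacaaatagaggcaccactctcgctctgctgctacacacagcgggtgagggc
Adrb1, chr19:56721867-56722116, plus strand: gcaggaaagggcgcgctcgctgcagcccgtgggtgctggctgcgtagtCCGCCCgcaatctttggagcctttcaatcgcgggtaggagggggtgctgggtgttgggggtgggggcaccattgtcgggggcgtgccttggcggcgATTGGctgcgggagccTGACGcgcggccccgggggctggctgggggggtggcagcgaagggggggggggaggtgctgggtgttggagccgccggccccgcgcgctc
Adra1b, upstream start, chr11:43901238-43901487, minus strand: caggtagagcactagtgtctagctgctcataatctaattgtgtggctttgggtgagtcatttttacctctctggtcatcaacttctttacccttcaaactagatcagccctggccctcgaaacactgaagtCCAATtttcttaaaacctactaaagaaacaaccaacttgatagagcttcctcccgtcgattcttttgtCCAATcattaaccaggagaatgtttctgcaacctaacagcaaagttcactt
Adra1b, downstream start, chr11:43836490-43836739, minus strand: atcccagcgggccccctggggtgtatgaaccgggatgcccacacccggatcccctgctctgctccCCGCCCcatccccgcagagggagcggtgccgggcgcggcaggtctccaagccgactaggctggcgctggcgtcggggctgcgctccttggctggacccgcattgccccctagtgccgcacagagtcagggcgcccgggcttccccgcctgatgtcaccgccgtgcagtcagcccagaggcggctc

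The motifs were searched on both strands. A GC box (GGGCGG) was found once in the Chrm2 and Adrb1 windows and in the downstream Adra1b window, against 32.7% of all 32851 promoters of the same length. A CCAAT box (CCAAT) was found once for Chrm2 and for Adrb1 and at 2 places in the upstream Adra1b window, against 33.8% of all promoters. The half-site of the cyclic AMP response element (TGACG, found in 17.8% of promoters) was in the Adrb1 window, 90 bases before the start. None of these 4 windows held a TATA box (TATAAA, 12.4%), the core of the hypoxia response element (ACGTG, 16.6%), a GATA site (AGATAA, 9.99%) or a site of the cardiac factor NKX2-5 (TCAAGTG, 2.68%). TGACG and ACGTG can overlap by 3 letters. The windows differed in base composition, with 74.0% G and C for Adrb1, 72.8% for the downstream Adra1b start, 50.0% for Chrm2 and 41.6% for the upstream Adra1b start, against a median of 52.4%. In the windows of Adra2a and Grk5, the other genes with a promoter in the table, Adra2a held a TATA box, a GC box, TGACG and ACGTG, and Grk5 held none of the 7 motifs. These matches are descriptions of the letters and not binding sites.

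Grk2 encodes the kinase once named β-adrenergic receptor kinase 1, which is drawn to the membrane by Gβγ and is raised in failing hearts (chr19:4336029-4356250, minus strand, GRCm39). It had 1652, 1712 and 1689 counts in V1, V2 and V3, and 1674, 1577 and 1635 in T4, T5 and T6. Raw counts overlapped, and after normalization the HO + β-SITO libraries, at 85.1 to 88.6 CPM, lay below the vehicle libraries, at 104 to 107 CPM. Grk2 fell from a mean of 105 ± 1.63 CPM to one of 86.6 ± 1.83 CPM (SD, n = 3), and its log2 fold change was -0.28 ± 0.055 (SE, edgeR adjusted p = 3.27e-04). Without TMM, on library size alone, the log2 fold change was -0.14 (edgeR adjusted p = 0.0406), a scaling that moved the median of all genes by 0.15 from -0.0073. Relative to the summed cardiomyocyte markers the log2 fold change was -0.55 ± 0.32 (SE), larger in size, and did not pass (edgeR adjusted p = 0.179). Unlike Chrm2, Grk2 in T4 was at 99.0% of the mean of T5 and T6.

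Grk5 encodes a kinase that is held at the membrane by lipids, is abundant in heart muscle, and can also enter the nucleus (chr19:60878187-61084406, plus strand, GRCm39). It had 1453, 1386 and 1472 counts in V1, V2 and V3, and 1917, 1864 and 2056 in T4, T5 and T6. The groups did not overlap, at 86.9 to 91.8 CPM and 98.5 to 107 CPM. The mean was 90.0 ± 2.68 CPM with vehicle and 103 ± 4.41 CPM with β-SITO (SD, n = 3), and the log2 fold change of 0.20 ± 0.059 (SE, edgeR adjusted p = 0.00715) turned to -0.076 relative to the summed cardiomyocyte markers (edgeR adjusted p = 0.880). The opposite-strand gene Zfp950 overlaps Grk5 and had 111 to 136 counts in the vehicle libraries and 135 to 193 with β-SITO. The 2 kinases thus differed in opposite directions under TMM. A ratio within each library does not depend on the scaling, and the ratio of Grk2 to Grk5 counts was 1.14, 1.24 and 1.15 in V1, V2 and V3 and 0.873, 0.846 and 0.795 in T4, T5 and T6, without overlap. Grk2 was the more counted kinase in each vehicle library and Grk5 in each HO + β-SITO library, while per kilobase Grk2 stayed above Grk5 in all 6.

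**Figure D4:**
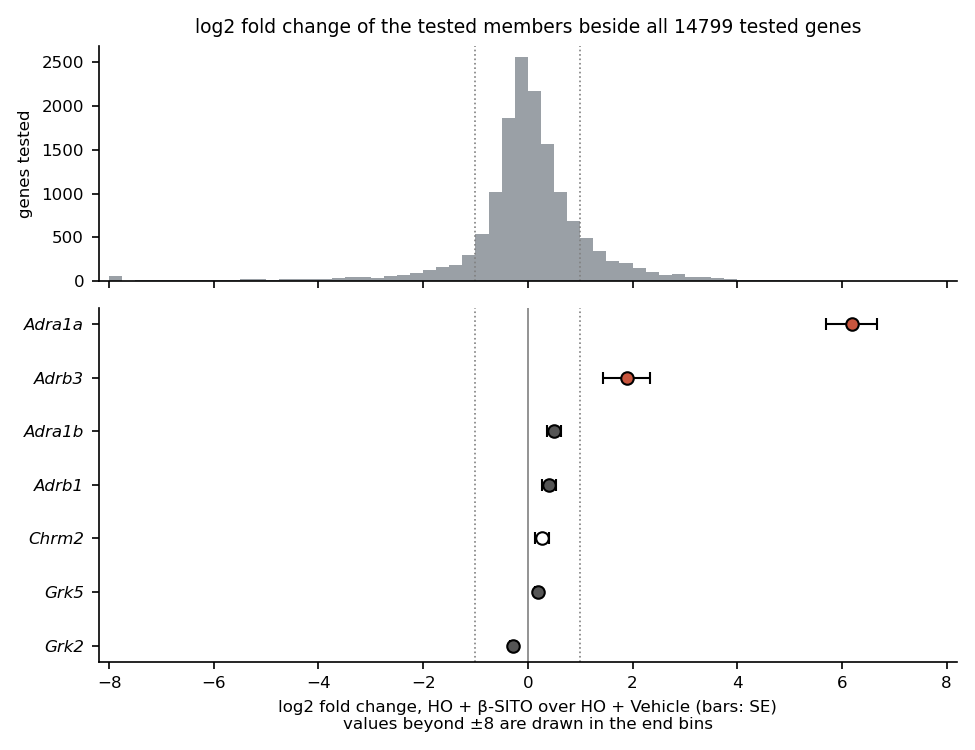
Upper panel, number of tested genes by log2 fold change (HO + β-SITO over HO + Vehicle), with values beyond the axis drawn in its end bins. Lower panel, the log2 fold change ± SE of the 7 tested genes, red where called, white where the adjusted p did not pass and grey otherwise, with dotted lines at 2-fold. Adra1a (6.19) and Adrb3 (1.89) lie beyond 2-fold, Grk2 (-0.28) is the lowest, and under scaling to cardiomyocyte markers Chrm2 and Grk5 turn below 0.

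The order of the levels per kilobase was the same for the 5 highest genes in both groups: Grk2, Grk5, Chrm2, Adra1b and Adrb1. In the vehicle libraries their mean RPKM was 23.6, 12.8, 6.69, 3.66 and 2.59, and no neighbours among them overlapped between libraries. With β-SITO it was 19.3, 14.7, 8.05, 5.20 and 3.44. There Adra1b and Adrb1 overlapped between libraries, although Adra1b was the higher of the pair within each of the 3 libraries. The other 4 genes were at or below 0.0805 RPKM in the vehicle group, in the order Adrb3, Adra1d, Adra2a and Adra1a, where Adrb3 and Adra1d overlapped, as did Adra2a and Adra1a. With β-SITO Adra1a stood first among these 4, at 0.407 RPKM, followed by Adrb3 at 0.303, Adra1d at 0.271 and Adra2a at 0.0626. The values of Adra1a and Adrb3 overlapped, as did those of Adrb3 and Adra1d, so their order is not settled by these libraries.

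Among tested genes with a mean of at least 100 counts, the 3 with a profile nearest to that of Adra1a over the 6 libraries were Mrc1, Kcne3 and Htra3, at distances of 0.95, 1.02 and 1.03 (Euclidean, mean-centred log2 CPM). Mrc1 encodes the mannose receptor of macrophages and averaged 11.8 CPM in the vehicle group and 325 CPM with β-SITO. Kcne3, a potassium channel subunit gene, averaged 0.480 and 19.3 CPM, and Htra3, a gene of a secreted protease, 19.7 and 386 CPM. These genes share with Adra1a a large difference between the groups, which dominates the distance. Among the 12 macrophage markers, all of which were tested and none of which was at 0, 7 were called higher and 2 lower. The shares over all tested genes were 12.8% and 10.1%. The summed CPM of the macrophage markers ran from 1388 to 1518 in the vehicle libraries and from 2869 to 3522 with β-SITO. Their part in the Adra1a values was not tested.

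The genes that act with these receptors were described over 13 lists, which include the 9 genes themselves. Of 137 tested genes 39 were called higher, against 12.8% of all tested genes, and 9 lower, against 10.1%, and their median log2 fold change was 0.35, beside -0.0073 over all tested genes. Scaled to the summed cardiomyocyte markers 28 of them were called higher and 13 lower, beside 1333 higher and 2088 lower of all 14799 genes. Genes named below with fewer than 100 counts on average, and the count of each list, were picked after their values were seen.

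**Figure D5:**
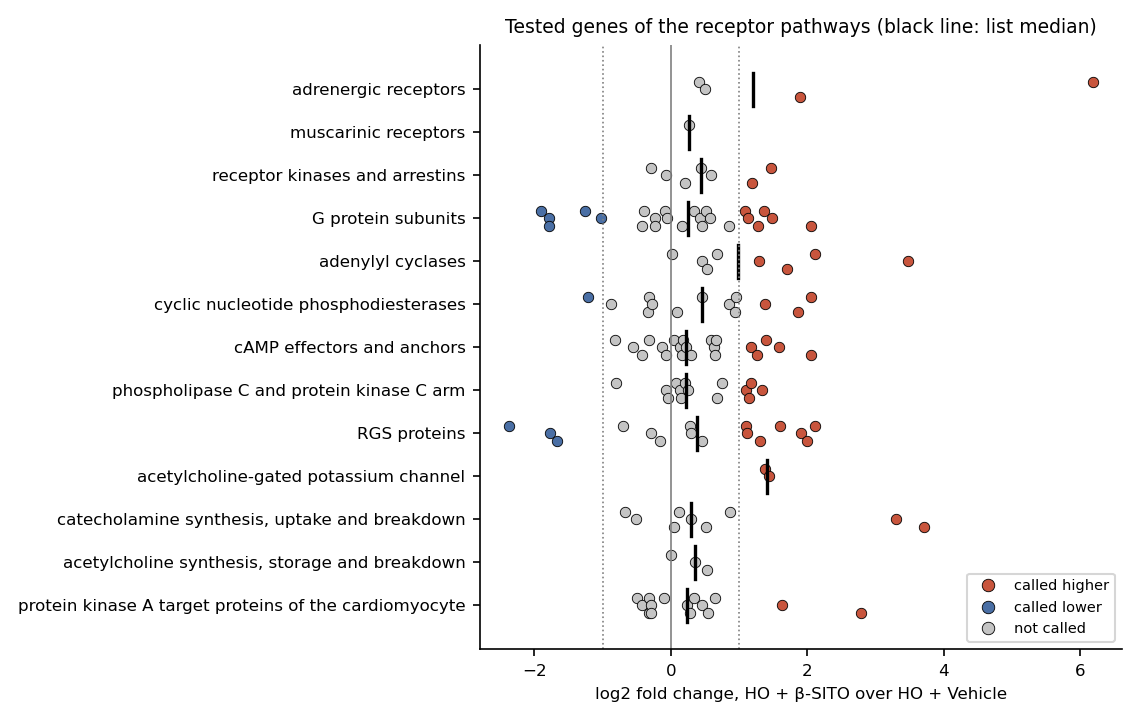
Log2 fold change (HO + β-SITO over HO + Vehicle, TMM scaling) of each tested gene in 13 lists, red where called higher, blue where called lower and grey otherwise, with a black line at the list median and dotted lines at 2-fold. The adenylyl cyclases (median 0.99) and both potassium channel genes (median 1.41) lie mostly to the right, and called genes on the left are found among the G protein subunits, the RGS proteins and the phosphodiesterases.

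Among 7 tested receptor kinases and arrestins, 2 were called higher and none lower (12.8% and 10.1% of all tested genes), with a median log2 fold change of 0.44. Arrb1, which encodes β-arrestin 1, rose from 59.3 ± 5.82 to 164 ± 5.05 CPM (log2 fold change 1.47 ± 0.070 SE, edgeR adjusted p = 4.81e-11). Its libraries held 877 to 1043 counts with vehicle and 2974 to 3237 with β-SITO. Arrb2 went from 31.5 to 47.2 CPM (log2 fold change 0.58) and Grk6 from 33.7 to 45.9 CPM (0.44), both at an adjusted p under 0.05 and not called. Grk3, the closest relative of Grk2, was at 5.43 ± 0.253 and 5.17 ± 1.23 CPM (log2 fold change -0.075, edgeR adjusted p = 0.722). Grk4, a kinase known mostly from testis and kidney, was called at 9 to 20 counts with vehicle and 38 to 40 with β-SITO.

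Of the G protein subunit genes, 24 of 26 were tested. Of these 6 were called higher and 5 lower (12.8% and 10.1% of all tested genes), with a median log2 fold change of 0.25. Gnao1, whose Go protein is the α subunit best known from neurons and also found in atria, rose from 6.77 ± 1.44 to 28.2 ± 2.20 CPM, and Gng2, a γ subunit gene, from 10.6 to 27.3 CPM. Gnb4, a β subunit gene, fell from 137 ± 3.73 to 39.7 ± 2.20 CPM, Gng12 from 585 to 245 CPM and Gna13 from 203 to 99.7 CPM. The remaining calls were Gng8, Gng7, Gna14 and Gna15 on the higher side and Gng4 and Gnaz on the lower side. Of the other α subunits, Gnaq, which carries the α1 signal, was at 92.2 and 78.7 CPM (log2 fold change -0.23, edgeR adjusted p = 0.00364), and Gnai2, which carries the M2 signal, at 705 and 677 CPM (-0.060, edgeR adjusted p = 0.371). Gnas, which encodes Gs, had only 105 to 234 counts in a library (log2 fold change 0.46), and its locus holds overlapping transcripts, so its level is uncertain.

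Among the adenylyl cyclases, which make cyclic AMP, 8 were tested. Of these 4 were called higher and none lower (12.8% and 10.1% of all tested genes), 7 were higher at an adjusted p under 0.05 (33.0% of all), and the median log2 fold change was 0.99. Adcy5, with Adcy6 a main cyclase of the heart, rose from 12.9 ± 2.69 to 42.2 ± 9.62 CPM (log2 fold change 1.71 ± 0.16 SE, edgeR adjusted p = 1.62e-07). Its counts were 251, 169 and 198 in V1, V2 and V3 and 614, 793 and 967 in T4, T5 and T6, and T4 was at 66.5% of the mean of T5 and T6, as for Chrm2. Adcy6 went from 103 ± 9.67 to 141 ± 16.9 CPM (log2 fold change 0.45). Adcy7 rose from 25.3 to 61.9 CPM, Adcy1 from 0.813 to 9.12 CPM and Adcy2 from 0.960 to 4.18 CPM.

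Of 13 tested phosphodiesterases, which break down cyclic nucleotides, 3 were called higher and 1 lower (12.8% and 10.1% of all tested genes). Their median log2 fold change was 0.46. Pde3a, whose enzyme is the target of milrinone in the heart, rose from 68.5 ± 5.24 to 178 ± 9.28 CPM (log2 fold change 1.38 ± 0.068 SE, edgeR adjusted p = 7.24e-11), and Pde3b from 4.59 to 19.0 CPM. Pde8b was called at 7 to 13 counts with vehicle and 40 to 56 with β-SITO, and Pde10a fell from 24.8 to 10.7 CPM. Among 21 cyclic AMP effectors and anchors, all tested, 5 were called higher and none lower (12.8% and 10.1% of all tested genes). Their median was 0.22. Akap12, an anchor of protein kinase A that binds β receptors, rose from 113 ± 13.1 to 467 ± 24.1 CPM and Pkig, an inhibitor of protein kinase A, from 56.8 to 129 CPM, and the others were Pkib, Rapgef4 and Akap5. The catalytic subunit gene Prkaca was at 165 and 192 CPM.

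Of 15 tested target proteins of protein kinase A and its transcription factors, 2 were called higher and none lower. The shares over all tested genes were 12.8% and 10.1%, and the median log2 fold change of the list was 0.23. Nr4a1, a nuclear receptor gene induced by cyclic AMP, had 37 to 42 counts with vehicle and 307 to 334 with β-SITO, a log2 fold change of 2.79 ± 0.12 (SE, edgeR adjusted p = 1.36e-11). Ppp1r1b was the other call, at 9 to 12 and 30 to 43 counts. Pln, which encodes phospholamban, the brake of the calcium pump that β signals release, was at 126 ± 4.03 and 94.3 ± 25.5 CPM (log2 fold change -0.42, edgeR adjusted p = 0.0141), with T4 at 1266 counts below the 1997 and 2027 of T5 and T6. In the phospholipase C and protein kinase C arm downstream of α1 receptors, 4 of 14 tested genes were called higher and none lower. Its median was 0.23, and the shares over all tested genes were again 12.8% and 10.1%. Prkcb went from 3.90 to 8.37 CPM, and Plcb1, Plcb2 and Trpc6 were called at fewer counts.

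The RGS proteins, which shorten G protein signals, held calls in both directions. Of 16 tested, 7 were called higher and 3 lower (12.8% and 10.1% of all tested genes), with a median log2 fold change of 0.38. Rgs16 fell from 84.3 ± 2.64 to 16.3 ± 0.840 CPM (log2 fold change -2.37 ± 0.070 SE, edgeR adjusted p = 1.30e-13) and Rgs17 from 12.2 to 3.84 CPM. Rgs10 rose from 4.26 to 16.0 CPM, Rgs5, which also marks pericytes, from 11.7 to 28.9 CPM, and Rgs2, which acts on Gq, from 4.15 to 12.7 CPM. Rgs4, which limits Gq and Gi signals in cardiomyocytes, rose from 3.34 ± 0.738 to 7.30 ± 2.66 CPM, and Rgs8 was the third gene called lower. Both genes of the acetylcholine-gated potassium channel were called higher (12.8% of all tested genes). This channel is the end point of M2 signals in atrial and pacemaker cells. Kcnj3 had 44, 29 and 32 counts in V1, V2 and V3 and 67, 130 and 124 in T4, T5 and T6 (log2 fold change 1.38 ± 0.27 SE, edgeR adjusted p = 2.91e-04). Kcnj5 had 320, 253 and 305 counts and then 873, 920 and 1002 (log2 fold change 1.44 ± 0.094 SE, edgeR adjusted p = 2.24e-09). For both genes every HO + β-SITO library lay above every vehicle library, as for 34.8% of all tested genes, while their receptor gene Chrm2 overlapped between the groups.

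Genes that make, take up or break down the transmitters were mostly scarce or not called. In the catecholamine list 9 of 14 genes were tested, and 2 were called higher and none lower (12.8% and 10.1% of all tested genes). The median log2 fold change was 0.30. Maoa, which encodes a monoamine oxidase that breaks down noradrenaline, was at 39.8 ± 1.85 and 43.4 ± 3.78 CPM (edgeR adjusted p = 0.170). In the acetylcholine list 3 of 7 genes were tested and none was called. Ache, which encodes acetylcholinesterase, was at 1.71 ± 0.460 and 2.19 ± 0.608 CPM (edgeR adjusted p = 0.271). The 2 receptor lists held 4 tested of 8 adrenergic genes, with a median of 1.20, and 1 tested of 5 muscarinic genes, Chrm2. Adra1a and Adrb3 passed the filter only through the HO + β-SITO libraries, so the adrenergic median supports nothing further.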

How the data were processed

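Total RNA of hypoxic NMCMs was sequenced in 6 libraries. The kit is an ABclonal one in the paper's methods and an Illumina one in the labels. The authors deposited raw counts per gene, with no normalization, and the submitters' processing notes name FastQC, HISAT2 and featureCounts with the build GRCm39. Versions, the strand setting and the handling of reads that fit several genes are not given in the sources used here.

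CPM values and tests were made from these counts in R 4.3.3 with edgeR 4.0.16 (filterByExpr, TMM, quasi-likelihood test with the group as the only term), and alternatives with limma 3.58.1 and DESeq2 1.42.0. A prior count of 2 was used only for the log2 CPM profiles, and the fitted log2 fold changes used the default prior count of edgeR. In simulated counts with known changes, the share of false calls was near or above the nominal level, depending on the dispersions simulated. SE values come from the quasi-likelihood statistic. RPKM used exon lengths of GENCODE vM21 (GRCm38), matched by gene ID for 52081 of 57010 genes. Ratios of sums have exact binomial intervals of 95%, which cover counting error only. Spread between replicates was a biological coefficient of variation of 6.52%. Exact permutation of 3 against 3 libraries cannot give a p under 0.05, so single genes rest on the fit across all genes.

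The 9 genes and all lists were chosen with earlier results of these data known. Named are the 9 genes, up to 3 called genes in each direction per pathway list with a mean of at least 100 counts, partner genes of the receptors, and the 3 genes nearest in profile to the most increased called gene. Some genes chosen by this rule are left out of the text. Marker lists covered cardiomyocytes, fibroblasts, smooth muscle cells and pericytes, endothelial cells, macrophages, autonomic neurons, Schwann cells and epicardial cells. Alternatives changed the normalization, filter, test and threshold, left out mitochondrially encoded genes or each library in turn, and, added after seeing the data, scaled to cardiomyocyte marker counts.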

Additional observations from a re-analysis of the deposited data

How the results depend on the processing

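Over the alternatives the 2 called genes among the 9 became 1 with a minimum of 1 CPM in 3 libraries, a filter that Adrb3 did not pass, 1 with glmTreat against 2-fold, 3 with no filter beyond 1 count, and 6 with the adjusted p alone. The calls over the pathway lists went from 48 to 28 with glmTreat and 104 with the adjusted p alone, and over all tested genes from 3380 (1888 higher and 1492 lower) to 9892 with the adjusted p alone. Scaled to the summed cardiomyocyte markers, the all-gene split was 1333 higher and 2088 lower, the list split 28 higher and 13 lower in place of 39 and 9, and the median of all genes moved by -0.27. In that scaling Chrm2 (-0.060) and Grk5 (-0.076) turned below 0, and Adra1b (0.17) and Adrb1 (0.10) no longer passed. Grk2 no longer passed either, but its log2 fold change was larger in size there, at -0.55 ± 0.32 (SE, edgeR adjusted p = 0.179). Library size alone moved the all-gene median by 0.15 and upper quartile scaling by 0.14, and under both Chrm2 passed (0.41 each). With a library left out, the 9 genes gave 2 calls in each of 6 fits, the lists 46 to 51 and all genes 3467 to 3610. Adra1a passed in all 16 alternatives (5.68 to 8.99 on the log2 scale, the highest without V1). No paired analysis was possible because the groups share no replicate numbers. At this depth 3 counts are 0.154 to 0.189 CPM, which limits Adra1d, Adra2a and the vehicle level of Adra1a.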

Other observations

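Several transcripts of the receptor pathways were near the limit of detection with vehicle and above it with β-SITO, and were too scarce to be tested. Adra2b, which encodes the α2B receptor, had 0, 0 and 1 counts in V1, V2 and V3 and 4, 12 and 16 in T4, T5 and T6. Chrm3, which encodes the M3 receptor of smooth muscle, had 3, 0 and 0 counts and then 15, 18 and 7. Pde4c, a phosphodiesterase gene, had 0 counts in each vehicle library and 9, 12 and 9 with β-SITO. These genes were picked after their values were seen. Adra2c had 1 count in T4, T5 and T6 each and none with vehicle, and Chrm5, Chat and Slc18a3 had none in any library.

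Among the markers of other cells, endothelial genes were called most often, 10 of 12 higher and 1 lower (12.8% and 10.1% of all tested genes), with a summed CPM of 1238 to 1379 in the vehicle libraries and 1395 to 1422 with β-SITO, where the fall of Flt1 from 533 to 104 CPM weighed on the sum. Fibroblast markers had 2 of 12 called higher and none lower and a summed CPM of 30139 to 31377 and 45230 to 46356. Schwann cell markers had 2 of 5 tested called higher, with sums of 12.6 to 14.0 and 28.4 to 30.6 CPM. Epicardial markers had 2 of 7 called higher and 1 lower, and their sum went from 918 to 950 CPM to 205 to 236 CPM, mostly Aldh1a2, at 842 and 84.9 CPM. Autonomic neuron markers summed to 90.6 to 101 CPM and 86.4 to 90.8 CPM, mostly Hand2 and Tubb3, which other heart cells also express. The part of any of these lists in the values of the receptor and kinase genes was not tested.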
